A study of Mus musculus with 58 samples.

Results

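Cirbp and Rbm3 encode the cold-inducible RNA-binding protein and RNA-binding motif protein 3, a pair of small glycine-rich proteins of the same family. They were followed with 4 of the 55681 gene probes of the array, and make up 2 of the 20018 gene symbols that could be matched. They were selected on their measured log2 ratios in these arrays, by dose, by tissue and between tissues of 1 mouse, so all of their levels, changes and same-mouse relations below are descriptions, with errors but without p-values.

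The mice were males of Muta™Mouse, whose genome holds lacZ copies from a bacterium as a mutation reporter. They were housed singly, were about 10 weeks old, and were gavaged daily for 28 days with olive oil, alone or with benz(a)anthracene (BaA) dissolved in it, a hydrocarbon of fused aromatic rings formed in combustion. D0 received olive oil only (a BaA dose of 0), and the daily dose per kg of body weight was 20 mg in D1, 40 mg in D2 and 80 mg in D3. At 72 h past the final gavage, the lung, the liver and the forestomach, which is the squamous-lined front part of the rodent stomach, were collected. The 20 mice, numbered 1 to 20, gave 58 arrays. Lung had 5 arrays in each group, liver had 5, 5, 5 and 4 in D0 to D3 (mouse 20 was not analysed here), and forestomach had 4, 5, 5 and 5 (mouse 5 was not analysed here). Each array held the RNA of 1 mouse in the Cy5 channel and a commercial pool of RNA from mouse cell lines in the Cy3 channel, with the dyes never exchanged. The log2 ratios of Cy5 to Cy3 were normalised by loess within each array, so a ratio of 0 does not mean equal raw signal in tissue and pool. Ratios of different probes are not compared with each other as levels.

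Both proteins hold an RNA recognition motif followed by a glycine-rich tail. Their mRNAs rise when the temperature of a cell or body falls slightly below normal and decline on warming, which is the reverse of the heat shock genes switched on by the factor HSF1. In mammals both follow the daily rhythm of body temperature. Cirbp and Rbm3 bind 3′ ends of many mRNAs, among them those of the circadian clock, and take part in the choice of polyadenylation site. Cirbp is also induced by ultraviolet light and low oxygen, and its protein binds the mRNA of stress-response genes.

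Cirbp (RefSeq NM_007705) lies on chromosome 10 at chr10:80165990-80172786 and Rbm3 on the X chromosome at chrX:8138975-8145880 in the RefSeq annotation of GRCm38.p6. The array held 1 Cirbp probe (NM_007705) and 3 Rbm3 probes, each designed on another transcript record (NM_001166409, NM_001166410 and NM_016809). The promoter of Cirbp is shown because it holds a sequence, TCCCCGCC, known as a mild-cold response element. That of Hspa1a, the main heat-inducible chaperone gene, is shown beside it because its mRNA is set against that of Cirbp below. Each is the 250 bases before a transcription start in RefSeq on GRCm38.p6, written 5′ to 3′ on the strand of the gene, and the capitals mark the matches to TCCCCGCC or its reverse complement GGCGGGGA and to GAANNTTC, the core of a heat shock element. The Cirbp promoter is from chr10:80167589-80167838 on the forward strand and the Hspa1a promoter from chr17:34972157-34972406 on the reverse strand.
Cirbp: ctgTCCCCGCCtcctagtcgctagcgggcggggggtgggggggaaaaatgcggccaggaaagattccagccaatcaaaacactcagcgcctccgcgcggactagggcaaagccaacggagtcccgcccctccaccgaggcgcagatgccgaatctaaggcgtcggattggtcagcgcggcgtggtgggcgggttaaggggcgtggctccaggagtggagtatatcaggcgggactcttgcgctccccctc
Hspa1a: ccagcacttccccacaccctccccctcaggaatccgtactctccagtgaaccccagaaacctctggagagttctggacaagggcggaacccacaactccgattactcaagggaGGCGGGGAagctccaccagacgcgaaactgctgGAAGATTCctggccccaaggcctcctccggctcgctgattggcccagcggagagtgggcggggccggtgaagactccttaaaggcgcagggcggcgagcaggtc
In the Cirbp promoter TCCCCGCC lay 247 to 240 bases before the start. In the Hspa1a promoter GGCGGGGA lay 137 to 130 bases and GAAGATTC 104 to 97 bases before it. Among 32851 mouse promoters of the same length, 4.64% held TCCCCGCC on either strand and 6.69% held GAANNTTC. A second Cirbp start in the same table held neither. These are matches of letters only. Promoters of Dnaja1, Srsf5 and Dbp, genes set beside Cirbp below, were searched as well. Of the 3 Dnaja1 starts, the first held GAAAATTC and the others held GGCGGGGA. The promoters of Srsf5 and Dbp held no match. A further sequence, the E-box CACGTG, was in none of the promoters of these genes. Rbm3 had no promoter entry and is given here by name alone.

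The Cirbp probe and the Rbm3 probes NM_001166409 and NM_001166410 were well above background in the tissue channel on all 58 arrays, and no member probe was saturated. Of these Rbm3 probes NM_001166409 was the brightest and leads the account of Rbm3. The Rbm3 probe NM_016809 was dim, with a tissue signal of 73.5 to 343 units and a reference signal of 55.5 to 108 units. It was well above background on all 20 lung and all 19 forestomach arrays, but on only 5 of 19 liver arrays, with 3, 1, 1 and 0 arrays in D0 to D3. It passed the filter for testing (at least 4 arrays of a tissue, over all dose groups) in lung, forestomach and liver. In liver its values are nevertheless near background. The other 3 probes passed the filter in every tissue as well.

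On each array between 34.1% and 69.2% of spots were well above background in the tissue channel. Markers of lung, liver and squamous epithelium were detected in their own tissue (5 of 5 genes in each). The forestomach arrays also carried transcripts of the glandular stomach in amounts that varied between mice: the mean log2 ratio of its 8 markers spanned 0.79 to 6.21 in D0, 5.25 to 6.65 in D1, 1.07 to 6.63 in D2 and 1.23 to 6.41 in D3. In lung the mean log2 ratio of 3 B-cell markers was 0.55 to 1.23 in D0, 1.00 to 1.60 in D1, 1.61 to 2.26 in D2 and 1.19 to 1.61 in D3. The r of Cirbp with the B-cell mean over lung arrays was 0.49 (-0.27 within dose groups), and with the glandular stomach mean over forestomach arrays 0.25 (0.41 within dose groups). The mean of the 4 of 5 fat markers tested in forestomach spanned 0.48 to 5.73 in D0, 0.44 to 5.11 in D1, 0.99 to 4.97 in D2 and 0.21 to 3.46 in D3, and its r with Cirbp was -0.44 (-0.42 within dose groups). In liver the mean of the 5 liver markers spanned 7.04 to 7.44 in D0 and 6.90 to 7.30 in D3, and its r with Cirbp was -0.57 (-0.57 within dose groups). NM_001166409 in liver had an r of -0.42 with the liver markers (-0.51 within dose groups). With the 2 of 3 red-cell markers tested it had -0.55 (-0.54). The part of these cell types in the values below was not tested. Since whole tissue was used, more cells of a type and more RNA per cell cannot be told apart.

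The clearest pattern was that of Cirbp in lung. In the D0 mice 1 to 5 its log2 ratio was -0.53, -0.30, -0.63, -0.21 and -0.71. In the D1 mice 6 to 10 it was -0.13, -0.43, -0.02, -0.23 and 0.21. All vehicle lungs and 4 of 5 low-dose lungs thus had a log2 ratio below 0. In the D2 mice 11 to 15 the log2 ratio was 0.69, -0.17, 0.56, 0.15 and 0.57. In the D3 mice 16 to 20 it was 0.84, 0.89, 0.69, 1.00 and 0.65. Every D3 lung lay above every D0 and every D1 lung, every D2 lung lay above every D0 lung, and D2 overlapped with both D1 and D3. Mouse 12 was the lowest of D2, close to the D1 mice.

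The mean log2 ratio of Cirbp in lung was -0.48 ± 0.21 (SD, n = 5) in D0, -0.12 ± 0.24 (n = 5) in D1, 0.36 ± 0.36 (n = 5) in D2 and 0.82 ± 0.14 (n = 5) in D3. Set against D0, it was higher by 0.35 (SE 0.15) on the log2 scale at D1, which is 1.28-fold, by 0.84 (SE 0.15) or 1.79-fold at D2, and by 1.29 (SE 0.15) or 2.45-fold at D3. The means thus climbed at each dose step. The gap between the lowest treated and the highest vehicle lung was 0.045 at D2 and 0.865 at D3. Counted from the largest increase, Cirbp ranked 773 at D1, 75 at D2 and 18 at D3 among the 30392 probes tested in lung. Leaving out any 1 mouse kept the D3 change between 1.24 and 1.36.

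The lung increase was in the tissue channel. The mean tissue (Cy5) signal of the Cirbp probe was 1666.5 units in D0 and 5149.9 units in D3, while its mean reference (Cy3) signal was 4573 and 4531 units. On the normalised channels, the D3 change was 1.24 (SE 0.15) in Cy5 and 0.04 (SE 0.07) in Cy3. The 3 slides that held both D0 and D3 lungs gave D3 changes of 1.28, 1.63 and 1.13. They held 2, 1 and 2 D0 lungs and 2, 1 and 2 D3 lungs. Cirbp was thus higher at D3 on each slide taken alone.

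**Figure D1:**
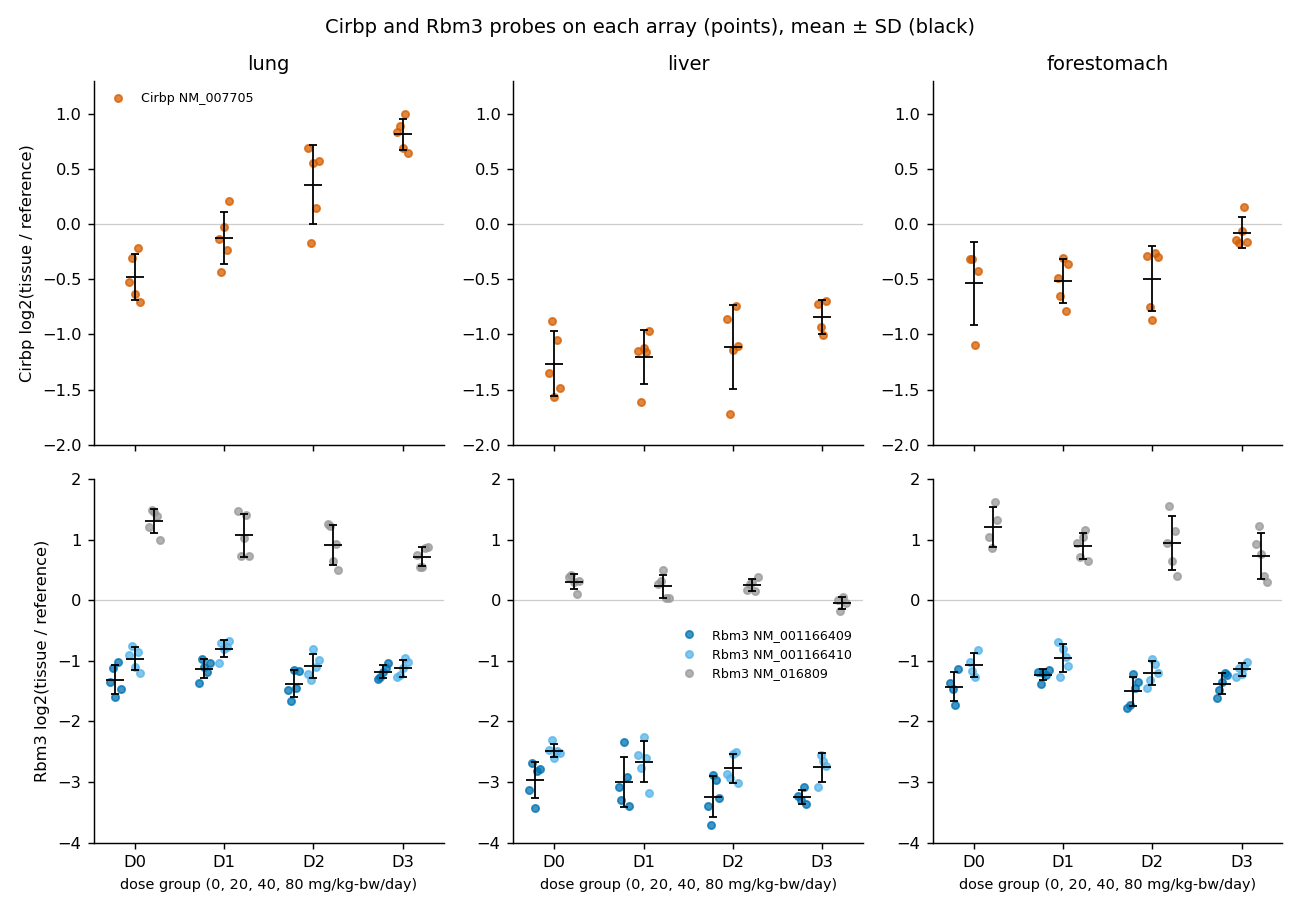
Log2 ratio of tissue to reference signal (y axis) for the Cirbp probe (upper panels) and the 3 Rbm3 probes (lower panels) against dose group (x axis, 0 to 80 mg/kg-bw/day) in lung, liver and forestomach, with 1 point per array and the mean ± SD in black. Cirbp in lung steps up from a mean of -0.48 in D0 to 0.82 in D3, whereas the Rbm3 probes NM_001166409 and NM_001166410 show no such staircase. The dim Rbm3 probe NM_016809 steps down in lung, from a mean of 1.31 in D0 to 0.72 in D3. Liver lies lowest for all 4 probes.

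In liver the Cirbp signal was lower than in lung or forestomach and its dose differences were smaller. The log2 ratio was -1.35, -0.87, -1.57, -1.05 and -1.49 in D0 mice 1 to 5 and -1.15, -1.62, -1.13, -1.16 and -0.97 in D1 mice 6 to 10. It was -0.86, -1.72, -1.15, -0.74 and -1.10 in D2 mice 11 to 15 and -0.73, -0.93, -1.01 and -0.70 in D3 mice 16 to 19. Mouse 12, lowest of D2 in lung, was also lowest of D2 in liver. The D3 livers had the narrowest spread and all 4 lay above the D0 mean, but they overlapped with the D0 mouse 2. The group means were -1.27 ± 0.30 (SD, n = 5), -1.20 ± 0.24 (n = 5), -1.11 ± 0.38 (n = 5) and -0.84 ± 0.15 (n = 4) in D0 to D3. The changes from D0 were 0.06 (SE 0.17), 0.15 (SE 0.17) and 0.43 (SE 0.18, 1.34-fold), the last ranked 300 of 22800 probes.

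In forestomach the Cirbp values of the D0, D1 and D2 groups lay on top of each other. The log2 ratio was -0.31, -0.32, -1.10 and -0.42 in D0 mice 1 to 4, and mouse 3 stood apart below the other mice. It was -0.49, -0.65, -0.31, -0.79 and -0.36 in D1 mice 6 to 10 and -0.29, -0.75, -0.87, -0.26 and -0.30 in D2 mice 11 to 15. In D3 mice 16 to 20 it was -0.15, -0.17, -0.06, 0.16 and -0.16. Every D3 forestomach was above every D0 forestomach, with a gap of 0.139. The means were -0.54 ± 0.38 (SD, n = 4), -0.52 ± 0.20 (n = 5), -0.49 ± 0.29 (n = 5) and -0.08 ± 0.14 (n = 5). The changes from D0 were 0.02, 0.04 and 0.46 (SE 0.17 each), the last being 1.38-fold and ranked 460 of 32330 probes. Without the D0 mouse 3 the D3 change was 0.27. The 3 slides gave D3 changes of 0.15, 0.70 and 0.32, from 1, 2 and 1 D0 and 2, 1 and 2 D3 forestomachs. The liver slides gave 0.46, 0.41 and 0.46, from 2, 1 and 2 D0 and 2, 1 and 1 D3 livers.

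Ordered by mean, the 12 Cirbp groups ran from liver D0, D1, D2 and D3 through forestomach D0, D1 and D2 to lung D0, lung D1, forestomach D3, lung D2 and lung D3. Each neighbour in that order overlapped with the next. The D3 change of Cirbp was larger in lung than in liver by 0.87 (SE 0.24) and larger in lung than in forestomach by 0.83 (SE 0.24), while liver and forestomach differed by -0.04 (SE 0.25). In each tissue the Cirbp means under loess ran in the order D0, D1, D2 and D3, but in liver and forestomach the steps below D3 were smaller than the spread between mice. In the log2 ratios of the authors the forestomach mean was -0.660 in D0 and -0.666 in D1. Over the processing settings the Cirbp change ran from -0.09 to 0.26 in liver at D2 and from -0.02 to 0.21 in forestomach at D1.

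Rbm3 did not follow Cirbp with dose. The probe NM_001166409 gave log2 ratios in lung of -1.35, -1.12, -1.60, -1.02 and -1.46 in D0 and -1.36, -0.96, -1.11, -1.18 and -1.03 in D1. It gave -1.48, -1.66, -1.14, -1.44 and -1.17 in D2 and -1.29, -1.27, -1.18, -1.12 and -1.03 in D3. All treated lung groups overlapped with D0 on this probe. Its means were -1.31 ± 0.24, -1.13 ± 0.15, -1.38 ± 0.22 and -1.18 ± 0.11 (SD, n = 5 each), and the changes from D0 were 0.18, -0.07 and 0.13 (SE 0.12 each). The D3 changes on the 3 slides were -0.05, 0.48 and 0.14, without a common direction.

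In liver the same Rbm3 probe gave -3.12, -2.69, -3.42, -2.82 and -2.78 in D0 and -3.08, -3.30, -2.35, -2.92 and -3.39 in D1. It gave -3.40, -3.70, -2.88, -2.96 and -3.26 in D2 and -3.22, -3.29, -3.09 and -3.37 in D3. These livers overlapped at every dose, with means of -2.97 ± 0.30, -3.01 ± 0.41, -3.24 ± 0.33 and -3.24 ± 0.12 (SD, n = 5, 5, 5 and 4). The changes from D0 were -0.04, -0.27 and -0.28 (SE 0.19 to 0.20). In forestomach it gave -1.37, -1.47, -1.72 and -1.14 in D0, -1.18, -1.38, -1.21, -1.24 and -1.14 in D1, -1.77, -1.73, -1.22, -1.44 and -1.34 in D2 and -1.61, -1.48, -1.34, -1.21 and -1.23 in D3. The forestomach groups overlapped as well, with means of -1.42 ± 0.24, -1.23 ± 0.09, -1.5 ± 0.24 and -1.37 ± 0.17 (SD, n = 4, 5, 5 and 5) and changes of 0.20, -0.08 and 0.05 (SE 0.13 each).

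What separated the Rbm3 values was the tissue. On NM_001166409 the lung and forestomach group means lay between -1.5 and -1.13 and the liver means between -3.24 and -2.97. The highest liver array, at -2.35, was still below the lowest array of lung or forestomach. The probe NM_001166410 gave the same order, with group means of -1.20 to -0.80 in lung and forestomach and -2.77 to -2.48 in liver. For Cirbp the liver was also lowest, but its liver and forestomach groups overlapped.

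The second Rbm3 probe, NM_001166410, gave -0.90, -0.76, -1.10, -0.85 and -1.20 in D0 lungs and -1.27, -1.24, -1.12, -0.95 and -1.02 in D3 lungs, which overlapped. Its changes from D0 were 0.16, -0.13 and -0.16 in lung, -0.19, -0.29 and -0.28 in liver and 0.11, -0.13 and -0.07 in forestomach, with SEs of 0.10 to 0.15. In livers of D0 it gave -2.48, -2.31, -2.60, -2.48 and -2.53 and in livers of D3 -3.09, -2.55, -2.65 and -2.74. Across the arrays of a tissue both probes moved together, with a Pearson r of 0.74 in lung (n = 20), 0.75 in liver (n = 19) and 0.80 in forestomach (n = 19), over points that share the array.

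The dim Rbm3 probe NM_016809 fell in lung at each dose step of the means, opposite to Cirbp. In lung it gave 1.22, 1.49, 1.45, 1.39 and 1.00 in D0 and 1.47, 0.73, 1.03, 1.41 and 0.73 in D1. It gave 1.25, 1.22, 0.65, 0.93 and 0.51 in D2 and 0.75, 0.55, 0.56, 0.87 and 0.88 in D3. Every D3 lung was below every D0 lung, by a gap of 0.121, and D1 and D2 overlapped with D0. The means were 1.31 ± 0.20, 1.07 ± 0.35, 0.91 ± 0.34 and 0.72 ± 0.16 (SD, n = 5 each), and the changes were -0.23, -0.40 and -0.59 (SE 0.16). On the 3 slides the D3 change was -0.70, -0.59 and -0.48. Over the lung arrays this probe had an r of 0.64 (0.85 within dose groups) with the mean of the 5 lung markers, which spanned 6.99 to 7.32 in D0 and 6.99 to 7.17 in D3, and of 0.57 (0.66) with that of the 2 of 3 red-cell markers tested, which spanned 5.85 to 6.39 and 5.68 to 6.31. The part of these in its change was not tested.

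In liver, where this probe was near background, NM_016809 gave 0.38, 0.41, 0.31, 0.10 and 0.32 in D0 and 0.00, -0.17, 0.05 and -0.05 in D3. The D3 livers lay below the D0 livers by a gap of 0.050, with a change of -0.35 (SE 0.10). In forestomach it gave 1.05, 0.86, 1.61 and 1.32 in D0 and 0.94, 1.23, 0.76, 0.40 and 0.31 in D3, groups that overlapped, with a change of -0.48. Its r over the forestomach arrays was 0.71 with the fat markers, 0.67 with the red-cell markers, 0.66 with the squamous markers and -0.52 with those of the glandular stomach (0.65, 0.76, 0.68 and -0.53 within dose groups), and their part was not tested. With the percent of spots well above background its r was 0.56 in forestomach and 0.21 in lung (0.66 and 0.50 within dose groups). On the 3 slides its forestomach D3 change was 0.03, -0.71 and -0.50. The part of the array signal was not tested. The 3 Rbm3 probes thus differed: at D3 in lung NM_001166409 changed by 0.13, NM_001166410 by -0.16 and NM_016809 by -0.59. Across the arrays r between NM_001166409 and NM_016809 was -0.35 in lung, 0.38 in liver and -0.50 in forestomach. Which transcripts of Rbm3 each probe measures was not tested.

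**Figure D2:**
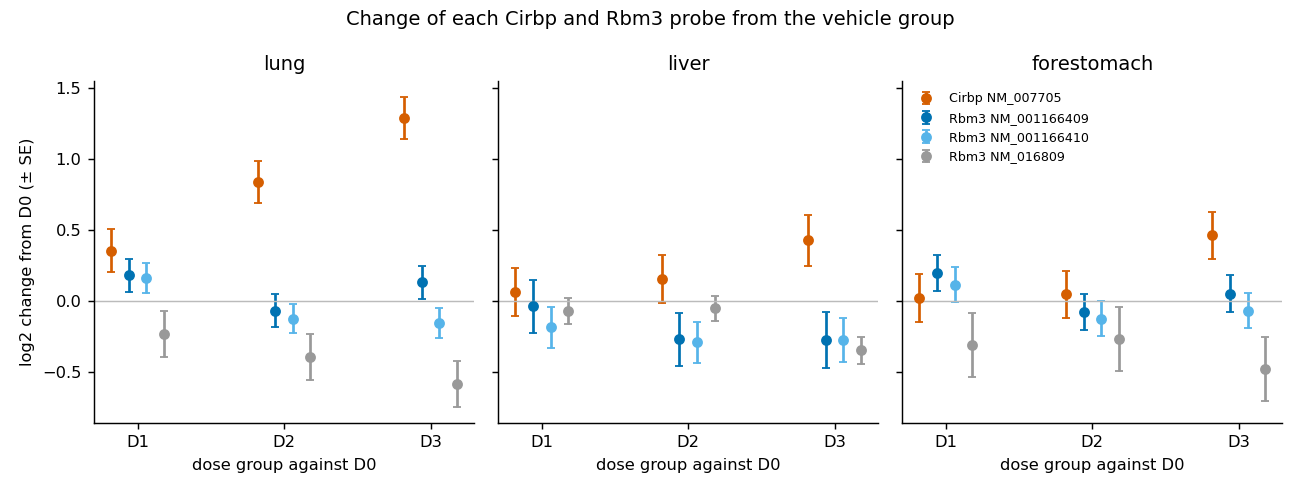
Log2 change from the vehicle group D0 (y axis, points with ± SE) of the Cirbp probe and the 3 Rbm3 probes at D1, D2 and D3 (x axis) in lung, liver and forestomach. Cirbp in lung climbs from 0.35 to 1.29, Cirbp in liver and forestomach departs from 0 at D3 (0.43 and 0.46), and the Rbm3 probes lie between -0.59 and 0.20.

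A probe was called changed at an adjusted p of at most 0.05 (limma, Benjamini-Hochberg over all probes of the tissue) together with a change of at least 1.5-fold. In lung 0%, 0.556% and 1.88% of the 30392 tested probes were called at D1, D2 and D3. Of the 4 member probes 0, 1 (Cirbp) and 2 (Cirbp, and NM_016809 in the lower direction) met these limits. The NM_016809 call was lost without any of 5 of the 10 mice, and with median centring in place of loess limma called no probe in lung at D2 or D3, Cirbp included (4203 and 1232 probes had an unadjusted p under 0.05). In liver 0.241%, 0.583% and 0.434% of 22800 probes and in forestomach 0%, 0.0124% and 0.0247% of 32330 probes were called, and no member probe was among them. With limma, 2267 probes in lung at D1 and 1427 in forestomach at D1 had an unadjusted p under 0.05. The share of probes whose arrays did not overlap with D0 was 1.04%, 4.6% and 7.47% at D1 to D3 in lung, 1.26%, 2.79% and 5.23% in liver and 1.43%, 1.18% and 1.96% in forestomach. Of the 4 member probes this held for 0, 1 and 2 in lung, 0, 0 and 1 in liver (NM_016809) and 0, 0 and 1 in forestomach (Cirbp). The D3 change differed between lung and liver for 2.06% of probes, between lung and forestomach for 0.257% and between liver and forestomach for 0.0453%. Since the members were chosen for such values, nothing is read from these counts.

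Since lung, liver and forestomach came from the same mice, the position of a mouse within its dose group could be compared between tissues. For Cirbp, the deviation from the group mean correlated between lung and liver with r = 0.73 (n = 19 mice), and 14 of 19 mice lay on the same side of the mean in both. Between liver and forestomach r was 0.65 (n = 18, 14 on the same side) and between lung and forestomach 0.47 (n = 19, 12 on the same side). Mouse 12 was the lowest of its dose group in both lung and liver. With the slide also removed the values were 0.66, 0.69 and 0.44. Without the 2 mice farthest from the median they were 0.49, 0.65 and 0.37. Tissues of a mouse share the animal and its dose, and slides are counted within each tissue.

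For Rbm3 the same comparison gave different pairs of tissues. On NM_001166409 the within-dose r was 0.70 between lung and forestomach (n = 19, 14 on the same side), 0.47 between liver and forestomach (n = 18, 10 on the same side) and 0.38 between lung and liver (n = 19, 11 on the same side). On NM_001166410 it was 0.19, 0.57 and 0.13 for the same pairs, and on NM_016809 0.39, -0.29 and -0.20. With the slide also removed the r between lung and forestomach was 0.48 on NM_001166409, 0.28 on NM_001166410 and 0.16 on NM_016809, and without the 2 farthest mice the within-dose r was 0.57, 0.40 and 0.21. The relation between these tissues thus differed between the Rbm3 probes.

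**Figure D3:**
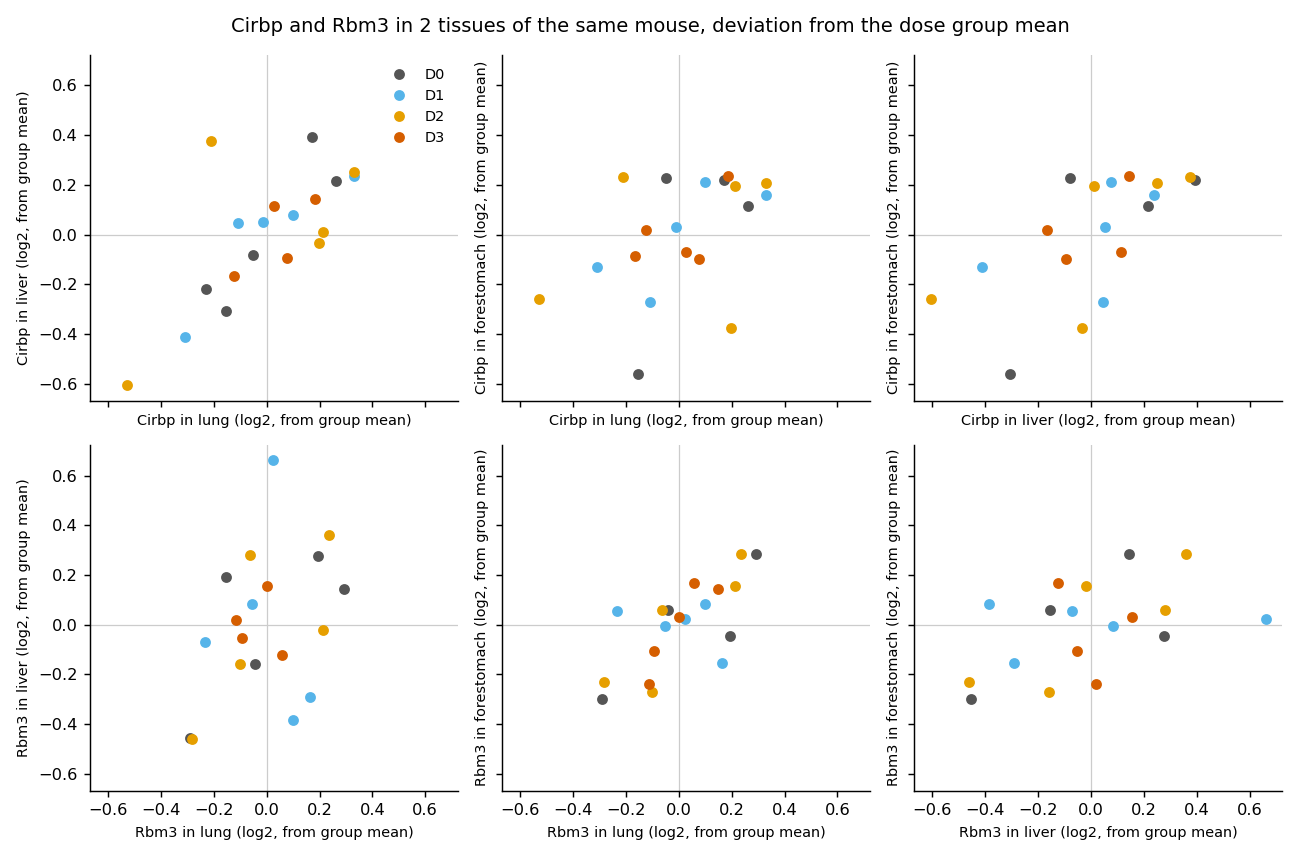
Deviation of each mouse from the mean of its dose group, in log2 units, in 1 tissue (x axis) and in another tissue of the same mouse (y axis), for Cirbp (upper panels) and the Rbm3 probe NM_001166409 (lower panels), with 1 point per mouse coloured by dose. For Cirbp the points run upwards in all 3 pairs of tissues (r = 0.73, 0.47 and 0.65), and for Rbm3 most clearly between lung and forestomach (r = 0.70).

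Within a tissue Cirbp and Rbm3 were weakly related over all arrays. Between Cirbp and NM_001166409 r was 0.24 in lung, 0.18 in liver and 0.21 in forestomach. Within dose groups it was 0.51, 0.46 and 0.32, so that mice with more Cirbp signal than their group tended to have more signal on this probe. Against NM_001166410 the within-dose r was 0.46, 0.16 and 0.16, and against NM_016809 -0.12, -0.25 and -0.43. All points share the array.

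The genes whose log2 ratios most resembled Cirbp over the 20 lung arrays, of 14527 genes compared, were Srsf5, an SR protein of pre-mRNA splicing (r = 0.96), Ddx5, an RNA helicase (0.95), Ermard (0.94), Camk2g, a calmodulin-dependent kinase (0.94), and Trub2, a pseudouridine synthase (0.94). The most opposite were Hspa8, the constitutive HSP70 chaperone (-0.96), Sfpq, a splicing factor of paraspeckles (-0.90), Dnaja1, a co-chaperone of HSP70 (-0.88), Mkks (-0.88) and Rbm14 (-0.87). Most of these relations include the shared step with dose. Within dose groups the r with Cirbp was -0.90 for Hspa8, 0.82 for Srsf5 and 0.77 for Ddx5, but -0.36 for Dnaja1.

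Other genes stood closest to Cirbp in the other tissues. Over 19 liver arrays and 12051 genes they were Ttc4 (0.82), Pex16 (0.81), Tbl1xr1 (0.81), Uaca (0.78) and Kcnip3 (0.77) on the positive side, and Zbtb40 (-0.88), Ubxn2a (-0.79), Gdf9 (-0.78), Ncbp2 (-0.77) and Smarca5-ps (-0.77) on the negative. Over 19 forestomach arrays and 15097 genes they were Mnt (0.87), Nfkbil1 (0.85), Vamp2 (0.85), Numa1 (0.82) and Thrap3 (0.79), against Ran (-0.88), Cct3 (-0.85), Sec13 (-0.84), Cacybp (-0.84) and Gm2016 (-0.84). No gene stood among the 5 closest to Cirbp in more than 1 tissue. Each list holds the extremes of a large number of correlations over few arrays.

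For the Rbm3 probe NM_001166409 the closest genes in lung were Hnrnpa1, a nuclear RNA-binding protein (0.81), Cln6 (0.77), Cat, catalase (0.76), Gm5643 (0.76) and Slc39a11 (0.75), against Fkbp4, a co-chaperone of HSP90 (-0.78), Nmnat1 (-0.76), Nudc (-0.75), Slc25a38 (-0.73) and Apba3 (-0.73). In liver they were Rom1 (0.80), Ripply1 (0.79), Atp6v0d2 (0.77), Ebpl (0.77) and Sigirr (0.76), against Tsc22d1 (-0.83), Cnih1 (-0.82), Ces2b (-0.82), Mlec (-0.82) and Slco1a1 (-0.80). In forestomach they included Arpc2 (0.79), Rrm1 (0.77), Ccnf (0.77) and Casc3 (0.77), against Tmem100 (-0.75), Apex2 (-0.73), Kcnip1 (-0.71), Isca2 (-0.70) and Spata21 (-0.66). None of these named genes was among the closest to Cirbp.

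Hspa8 gave the mirror image of Cirbp in lung. Its log2 ratio was 1.16, 0.88, 1.19, 0.98 and 1.16 in D0, 0.69, 0.74, 0.50, 0.71 and 0.36 in D1, 0.07, 0.46, 0.03, 0.32 and 0.13 in D2 and -0.09, 0.08, 0.10, -0.04 and 0.15 in D3. Mouse 12, the D2 lung with the least Cirbp, had the most Hspa8 of D2, and mouse 10, the D1 lung with the most Cirbp, had the least Hspa8 of D1. In liver the r of Hspa8 with Cirbp was -0.70 (-0.68 within dose groups) and in forestomach -0.55 (-0.38). Srsf5 ran with Cirbp in lung, from -1.23, -1.26, -1.23, -0.96 and -1.38 in D0 to 0.17, 0.40, 0.45, 0.48 and 0.07 in D3. Its r with Cirbp was lower in liver (0.52, and 0.47 within dose groups) and forestomach (0.43, and 0.11). In forestomach the D0 mouse 3, with the lowest Cirbp, had the highest Hspa8 (0.92) and Hspa1a (5.24) and the lowest Dbp (-1.75) of the D0 mice.

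**Figure D4:**
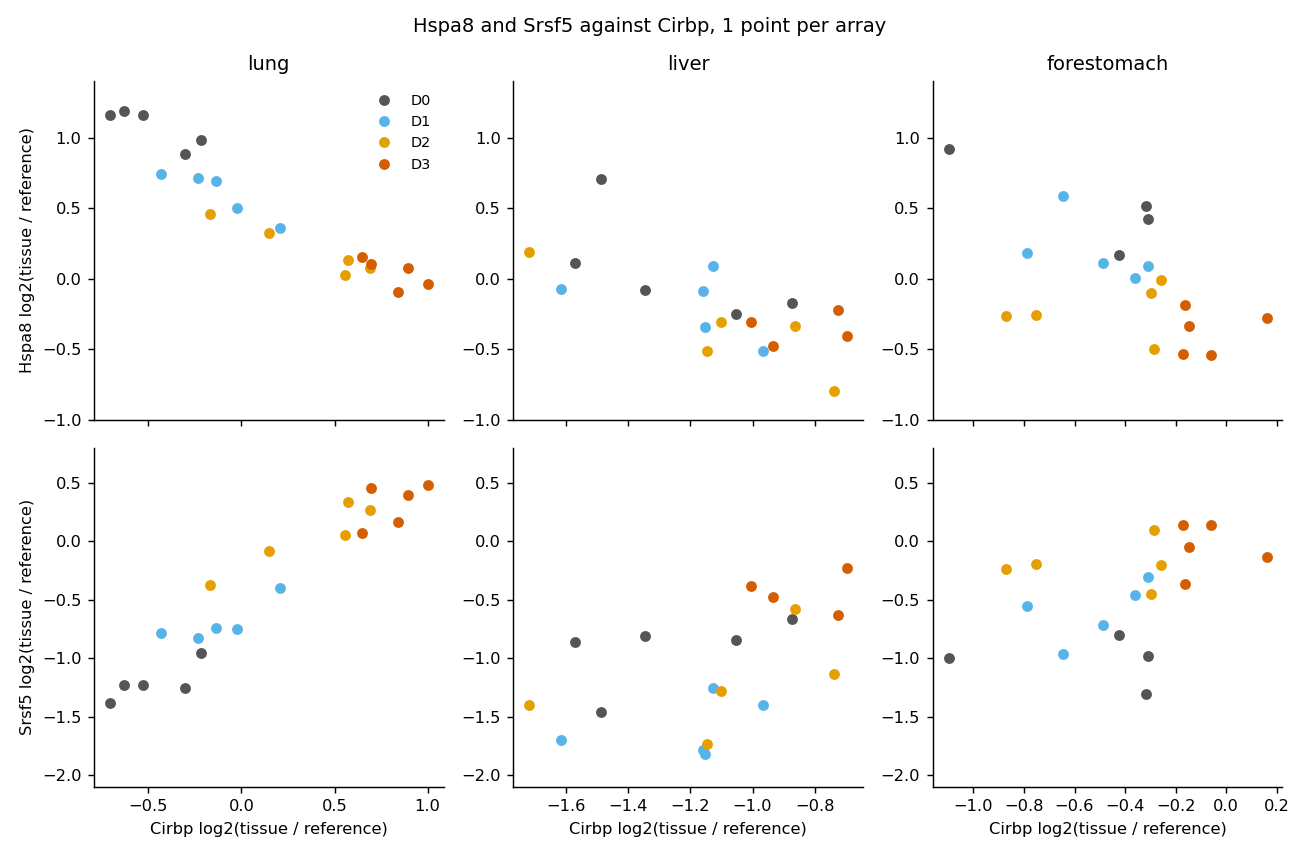
Log2 ratio of Hspa8 (upper panels) and Srsf5 (lower panels) on the y axis against the log2 ratio of Cirbp on the x axis in lung, liver and forestomach, with 1 point per array coloured by dose. In lung both relations are tight (r = -0.96 for Hspa8 and 0.96 for Srsf5) and in liver and forestomach they are looser (r = -0.70 and -0.55 for Hspa8, 0.52 and 0.43 for Srsf5).

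Lists of genes known to respond to temperature or time of day, or to work with these proteins, were set beside Cirbp. The lists were chosen with earlier results of these data known, so their counts and p-values are not independent support. Each listed gene was counted by its brightest tested probe. The share of all probes includes dimmer probes, so it is not a strictly like measure. For comparison, the median D3 change of all tested probes was 0.0030 in lung, -0.0040 in liver and -0.0061 in forestomach. An unadjusted p under 0.05 was given by limma to 7254 of 30392 probes in lung, 3417 of 22800 in liver and 1652 of 32330 in forestomach at D3, which is the background for the unadjusted counts below. Of the heat shock list, the chaperone genes driven by HSF1, 8 of 17 fell in lung at D3 and none rose, with a median change of -0.55 and no gene above 0, against 1.88% of all probes called. Hspa1a fell by 2.95 (SE 0.31, limma adjusted p = 2.65e-05), from 2.68 ± 0.79 in D0 to -0.27 ± 0.08 in D3 (SD, n = 5 each). Transcripts of its near-identical neighbour Hspa1b can hybridise to the same probe, so its share cannot be told apart. Dnaja1 fell by 1.74 (SE 0.16, limma adjusted p = 4.76e-06), Hsph1, an HSP110 chaperone, by 1.41 (SE 0.32, 0.00942) and Hspa8 by 1.03 (SE 0.10, 4.76e-06). The mean of the list was opposed to Cirbp in every tissue, with r = -0.79 in lung, -0.76 in liver and -0.77 in forestomach (-0.54, -0.87 and -0.78 within dose groups). Against Rbm3 NM_001166409 the within-dose r was -0.65, -0.57 and -0.36. In liver 1 of the 17 fell at D3, Dnajb1, an HSP40 co-chaperone (-1.0, SE 0.12, limma adjusted p = 0.00152), with a list median of -0.05. In forestomach 1 of 17 fell, Hspa8 (-0.88, SE 0.14, limma adjusted p = 0.041), with a list median of -0.49, and this call was lost when any of 7 of the 9 mice was left out. Limma gave an unadjusted p under 0.05 at D3 to 10, 4 and 11 of the 17 heat shock genes in lung, liver and forestomach.

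The clock output list holds genes activated together by the CLOCK and BMAL1 pair. In lung at D3 6 of 10 rose, with a median change of 0.86 and all 10 above 0. Dbp, a PAR bZIP factor, rose by 1.79 (SE 0.34, limma adjusted p = 0.00298), Per3, a period gene, by 0.93 (SE 0.19, 0.0048), Per2 by 0.89 (SE 0.25, 0.027) and Tef, another PAR bZIP factor, by 0.86 (SE 0.23, 0.0206). The calls of Per2 and Tef were lost without 4 and 2 single mice. In liver and forestomach limma called none of the 10 at D3, with medians of 0.27 and 0.58 and an unadjusted p under 0.05 for 3 and 5. Of the clock genes of opposite phase, 2 of 3 fell in lung, Nfil3, a repressor of PAR bZIP targets (-0.97, SE 0.15, limma adjusted p = 0.000809), and Clock (-0.65, SE 0.14, 0.00591). None was called in liver (3 genes) or forestomach (5 genes), where 2 and 3 had an unadjusted p under 0.05. Cirbp and the mean of the clock output list had an r of 0.69 in lung, 0.20 in liver and 0.51 in forestomach, but of 0.17, 0.04 and 0.21 within dose groups.

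The list of CLK kinases, whose activity falls with warming, and of the SR splicing proteins they phosphorylate also holds the cyclin Ccnl2, which is neither. Of this list 5 of 17 genes rose in lung at D3, with a median change of 0.12. Srsf5 rose by 1.53 (SE 0.13, limma adjusted p = 9.73e-07), Clk1, a dual-specificity kinase, by 0.88 (SE 0.13, 0.000493), Ccnl2, a cyclin of splicing speckles, by 0.84 (SE 0.15, 0.00238) and Clk4, a kinase close to Clk1, by 0.81 (SE 0.12, 0.000418). In forestomach 1 of 17 rose, Srsf5 (0.97, SE 0.14, limma adjusted p = 0.0132), a call lost without any of 5 mice, and the list median was -0.02. In liver 1 of 16 fell, Ccnl2 (-1.30, SE 0.26, limma adjusted p = 0.0201, lost without any of 4 mice), with a list median of -0.24. The liver list medians were -0.35 at D1 and -0.34 at D2. Ccnl2 was called lower at both doses (-1.44 and -1.54), and Clk1 at D2 (-0.68, lost without any of 4 mice). Srsf5 in liver had group means of -0.93, -1.59, -1.22 and -0.43 in D0 to D3. Limma gave an unadjusted p under 0.05 at D3 to 9 of 17, 9 of 16 and 4 of 17 genes in lung, liver and forestomach. The mean of this list had an r with Cirbp of 0.79 in lung, -0.11 in liver and -0.16 in forestomach. Over all 7 lists 21 genes were called in lung at D3. When each array was centred on its median in place of loess limma called 0 of them (15 listed genes had an unadjusted p under 0.05), and 19 listed genes were called when the slide was added to that setting as a block.

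Of the genes nearest to Cirbp and Rbm3 in function, none was called at D3. The list of their relatives holds other glycine-rich or cold-shock-domain RNA-binding proteins, and limma called none of its 9, 8 and 9 tested genes at D3 in lung, liver and forestomach. The medians were -0.08, 0.01 and 0.07, and 2, 2 and 1 genes had an unadjusted p under 0.05. The list of partners and targets of Cirbp and Rbm3 had none called of 14 in each tissue (limma, with an unadjusted p under 0.05 for 3, 4 and 0 genes), and medians of -0.06, -0.04 and 0.08. The list of cleavage and polyadenylation factors had none called at D3 of 16, 15 and 16 genes (limma, with an unadjusted p under 0.05 for 5, 2 and 0), and medians of -0.01, 0.01 and -0.01. At D2 in liver Cstf3 of this list was called lower (-0.61). That call was lost without any of 8 mice and with the authors' log2 ratios. The change of Cirbp in lung, 1.29, was larger than that of every tested gene of these 3 lists.

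**Figure D5:**
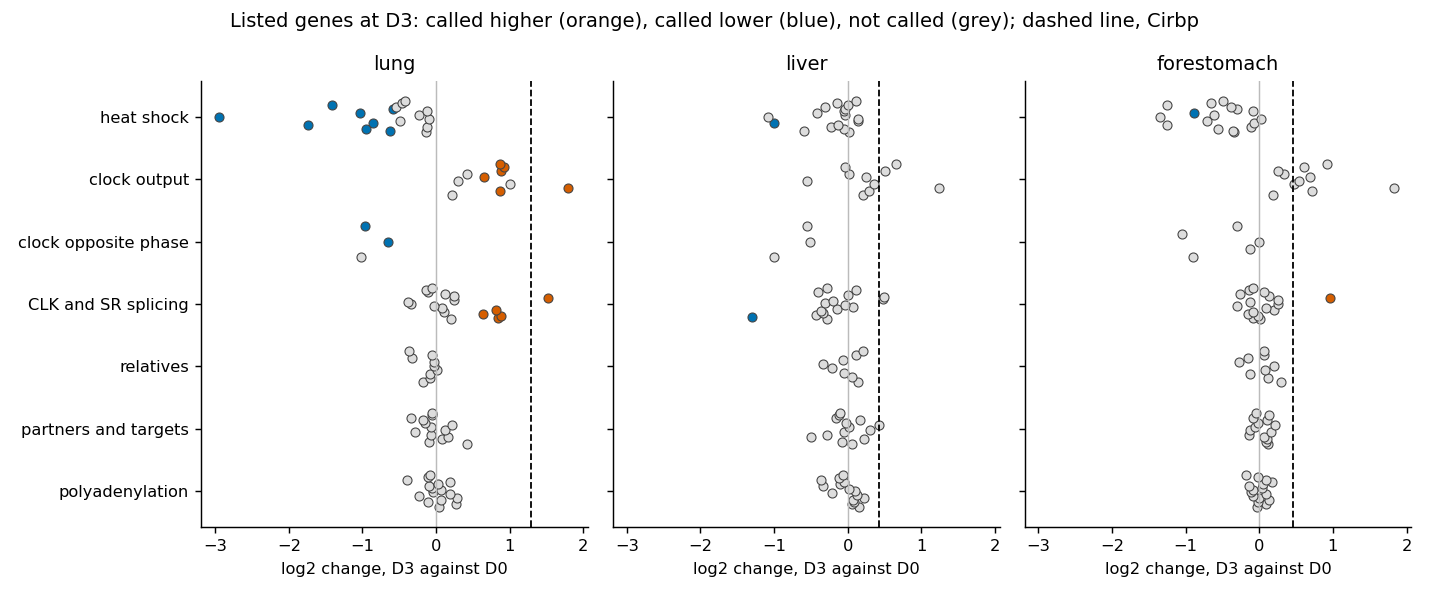
Log2 change at D3 against D0 (x axis) of each tested gene of 7 lists (y axis) in lung, liver and forestomach, with genes called higher in orange, called lower in blue and not called in grey, and the change of Cirbp as a dashed line. In lung the heat shock genes lie below 0 and the clock output genes above 0, and Dbp and Srsf5 lie beyond Cirbp (1.29).

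The normalisation moved the values in lung. When each array was centred on its median instead of being fitted with loess, the Cirbp changes in lung were 0.63, 1.39 and 1.49 at D1 to D3, and those of NM_001166409 were 0.49, 0.53 and 0.39, while the median of all lung probes moved by 0.18, 0.38 and 0.15. The Cirbp difference in lung was positive at each dose under every normalisation, slide or filter setting tried, whereas NM_001166409 at D2 was at -0.07 under loess and above 0 under median centring. When the slide was added to median centring as a block, a setting chosen after seeing the data, Cirbp in lung was at 0.59, 1.15 and 1.49 and NM_001166409 at 0.43, 0.33 and 0.39.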

How the data were processed

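Total RNA of 1 tissue of 1 mouse (Cy5) and Universal Mouse Reference RNA (Cy3) were hybridised to Agilent 2-colour arrays of 62976 spots, extracted with Feature Extraction 10.7.3.1 per the file headers. The deposited scanner files give the intensity of each spot on a linear scale. Their log2 ratios were deposited by the authors as a further table, made by LOWESS on median intensities without background subtraction, and tested genes with MAANOVA.

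Here the median intensities were normalised by loess within each array with limma 3.58.1 in R 4.3.3 (package data.table, version 1.17.8), and 0.495% of spots, those marked as outliers, were left out. These ratios correlated with those log2 ratios of the authors at r = 0.995 to 0.998 per array. Spots of a probe were averaged. Testing in a tissue required a probe to be well above background on 4 or more arrays of that tissue, counted over all dose groups. Each tissue was fitted with its 4 dose groups by lmFit and eBayes, and D3 effects were compared between tissues in a fit over all arrays. Limma took the place of MAANOVA. Replicates are separate mice, whose number limits the precision. Same-numbered samples of different tissues come from the same mouse. The median correlation of their deviations over all probes was 0.125, 0.109 and 0.0620 for lung and liver, lung and forestomach, and liver and forestomach, above 0.1 in 12 of 19, 10 of 19 and 4 of 18 mice. The scripts were tested on simulated data.

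Probes were named through their RefSeq accession. All probes of Cirbp and Rbm3 are described, the brightest of each gene leads, and from each of 7 lists (heat shock, clock output, clock of opposite phase, CLK and SR splicing, relatives, partners and targets, polyadenylation) at most 4 called genes per tissue with the largest D3 changes are named, beside the 5 genes of highest and of lowest correlation, of which 1 is not reported here. Single genes outside that rule (Ddx5 within dose groups, Hspa1a and Dbp of mouse 3) were chosen after their values were seen. The genes and lists were chosen with earlier results of these data known. Alternatives were the authors' table, median centring, normexp (offset 50), Agilent's processed signals, a slide block, a stricter filter, Cy5 alone, mouse as a block and leaving out each mouse. Figures were drawn with matplotlib 3.10.9 in Python 3.11.15.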

Additional observations from a re-analysis of the deposited data

Results flagged for a closer look

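The Cirbp log2 ratio of the D0 mouse 3 in forestomach, -1.10, stood apart from the other D0 forestomachs. It was the only one of 48 groups of member values to do so by Dixon's test. Chance marks about 1 in 20 independent groups, but these groups share arrays and mice, so this serves as a flag only.

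Several listed genes had D3 changes that differed between tissues by limma's test of the difference (adjusted over all probes). Lung minus liver, the difference was -1.61 for Dnaja1, -0.90 for Chordc1, 0.96 for Per3, 1.31 for Clk1, 0.98 for Clk2, 0.95 for Clk4, 1.03 for Srsf5 and 2.14 for Ccnl2 on the log2 scale. Lung minus forestomach, it was 0.90 for Clk1.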

How the results depend on the processing

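Each called change of a listed gene kept its direction under every setting run, and the Cirbp changes in lung stayed above 0 at each dose. Given here are the member values that moved by more than the spread between mice, and the counts that moved by over 1.5 times, and the causes were not tested unless given.

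With the authors' log2 ratios 1 probe was called in lung at D1 (0 otherwise) and 5 for liver minus forestomach (10 otherwise). Median centring shifted the median of all probes by 0.18, 0.38 and 0.15 in lung at D1 to D3, by -0.17 in liver at D2 and by 0.13 in forestomach at D2. With it limma called 0 probes in lung at D2 and 0 at D3 (4203 and 1232 had an unadjusted p under 0.05), 18, 209 and 27 in liver at D1 to D3, 1 and 0 in forestomach at D2 and D3 (243 unadjusted at D3), 10 for lung minus liver, and 0 and 0 for the differences with forestomach (449 and 105 unadjusted). It called 0 listed genes in lung and 0 in forestomach (15 and 4 unadjusted), so all lung and forestomach calls of listed genes given above rest on loess or on a block for the slide. The lung changes at D1, D2 and D3 were 0.63 and 1.39 (D1 and D2) for Cirbp, 0.49, 0.53 and 0.39 for NM_001166409 and 0.47, 0.48 and 0.13 for NM_001166410. In liver NM_001166410 changed by -0.55 at D2 and NM_016809 by -0.21 at D3, and in forestomach at D2 Cirbp changed by 0.31, NM_001166409 by 0.20 and NM_001166410 by 0.16. The share of higher calls in liver was 5.26% at D2 and 17.2% at D3 with loess, and 0% and 3.7% with median centring.

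With Agilent's processed signals 304 and 1040 probes were called in lung at D2 and D3, 203 and 184 in liver, 0 and 0 in forestomach (limma, with 784 and 1219 at an unadjusted p under 0.05), 30 for lung minus forestomach and 24 for liver minus forestomach, and 0 listed genes in forestomach (18 unadjusted). The dim NM_016809 then changed by -0.69 and -1.07 in lung at D2 and D3, by -0.29, -0.31 and -1.85 in liver and by -0.93 in forestomach at D3. On the Cy5 channel alone it changed by -0.21 in liver at D3, and with the filter for every array it has no value there.

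With the slide as a block 1 probe was called in lung at D1, 163 in liver at D3, 169 for lung minus forestomach and 70 for liver minus forestomach. Median centring with the slide block, chosen after seeing the data, called 198, 1182 and 1206 probes in lung (99.0%, 98.7% and 97.4% higher, against 87.0% at D2 and 69.9% at D3 with loess), 35 and 433 in liver at D1 and D2 (0.462% higher at D2), 4 in forestomach at D3, 1510 for lung minus liver, 53 for liver minus forestomach, and 1 listed gene in forestomach. Of the 41 called gene changes, 34 lost their call with median centring and 9 with the slide block added. Cirbp in lung then changed by 1.15 at D2, NM_001166409 by 0.43, 0.33 and 0.39 and NM_001166410 by 0.40, 0.26 and 0.13. In liver NM_001166410 changed by -0.54 at D2 and NM_016809 by -0.18 at D3, and in forestomach NM_001166409 changed by 0.39 and 0.13 at D1 and D2 and NM_001166410 by 0.34, 0.068 and 0.12.

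With the mouse as a replicate block, the pairing given by the same animals, 469, 79 and 13 probes were called for lung minus liver, lung minus forestomach and liver minus forestomach, against 451, 73 and 10 without it, and no other call rests on the block.

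Leaving out each mouse in turn gave 0 to 6 probes in lung at D1, 22 (without D0 mouse 4) to 168 (without D0 mouse 5) in liver at D1, 69 to 253 (the same mice) at D2, 40 (without D3 mouse 18) to 204 (without D0 mouse 5) at D3, 1 (without D0 mouse 2) to 6 (without D2 mouse 15) in forestomach at D2 and 5 (without D0 mouse 1) to 9 at D3. Lung minus forestomach ran from 35 (without D3 mouse 19) to 93 and liver minus forestomach from 4 (without D0 mouse 3) to 71 (without D0 mouse 5). Listed genes called ran from 1 to 3 in liver and 0 to 2 in forestomach. The NM_016809 call in lung at D3 was lost without any of 5 mice. With at most 5 mice a group, and a tissue signal of NM_016809 near background in liver, small differences of Rbm3 cannot be resolved.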
